A study of Mus musculus with 2 samples.

Results

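The muscle miRNA genes, often called myomiRs, are the 9 hairpin genes Mir206, Mir1a-1, Mir1a-2, Mir133a-1, Mir133a-2, Mir133b, Mir208a, Mir208b and Mir499, chosen by gene name from the 2202 miRNA genes of the GENCODE M21 annotation. They were measured by microRNA sequencing in adult females of the strain 5xFAD/CAST, aged 8 to 10 months, with the left cerebral cortex as the tissue and total RNA as the input. 5xFAD is a transgenic model in which the neuronal Thy1 promoter drives the transgenes, and the mice develop amyloid plaques. The labels give 1 group of 2 libraries, replicate 2 and replicate 1, with the same strain, sex, age range and tissue and no treatment. Both name one donor entry and different tissue samples, so nothing says that they come from separate animals, and p-values concern only these 2 libraries, whose difference may be technical. The group has no mice labelled as lacking the transgenes, so no level here can be set against such mice.

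MyomiRs are made at high level in skeletal and cardiac muscle. The genes of miR-1, miR-206 and miR-133 are transcribed in pairs and act in muscle differentiation and growth, while the miR-208 and miR-499 genes sit in introns of myosin heavy chain genes and are processed from their transcripts. A miRNA recognises its targets mainly through its seed, bases 2 to 8 of the mature strand. The 3p strands of miR-1 and miR-206 are known to share their seed. In brain, miR-206 has been reported to repress Bdnf, a growth factor that maintains neurons and synapses.

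The mature strands in the RefSeq table (build GRCm38.p6) covered 6 of the 9 genes with 11 sequences. The mature strands of Mir1a-2, Mir133a-1 and Mir133a-2 and the 3p strand of Mir1a-1 are named only. Those on which the counts turn are shown 5′ to 3′ with the seed in capitals. The first pair shows how the 5p strands of Mir206 and Mir1a-1 differ, the third line is the strand of Mir133b that is almost that of Mir133a, and the last 3 show how the myosin-intron miRNAs are related.
miR-206-5p: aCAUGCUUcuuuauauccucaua
miR-1a-1-5p: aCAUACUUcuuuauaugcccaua
miR-133b-3p: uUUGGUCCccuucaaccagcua
miR-206-3p: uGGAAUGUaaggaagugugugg
miR-208a-3p: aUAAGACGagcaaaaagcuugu
miR-208b-3p: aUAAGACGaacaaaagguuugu
miR-499-5p: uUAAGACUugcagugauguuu

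Positions below are counted from the 5′ end of the strand named first. From miR-206-5p to miR-1a-1-5p, 20 of 23 bases were identical and the differences were G5A, C17G and U19C, so the 5p seeds differ. From miR-208a-3p to miR-208b-3p, 19 of 22 bases were identical and the differences G10A, A16G and C18U lay outside the shared seed. miR-499-5p has G8U against miR-208a-3p within the seed and was identical at 12 of 21 positions over the whole strand. The seed of miR-206-3p was also held in that table by a mature strand of Mir6349 and of Mir6382, besides its known sharing with miR-1.

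How far reads could be placed differed between these genes. The longest run of bases that the Mir206 hairpin shared with another miRNA hairpin was 13, and for Mir208a, Mir208b and Mir499 it was 12, 11 and 12. Mir1a-1 and Mir1a-2 shared a run of 28 bases with each other, and Mir133a-1 and Mir133a-2 one of 31. The strand miR-133b-3p shared 21 of its 22 bases in 1 run with both Mir133a hairpins, whereas miR-133b-5p shared no run over 9 bases. Reads that map to several places were set aside in the deposited tables, so the counts of the Mir1a and Mir133 genes are uncertain and can miss their main strands.

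The tables held 15950006 reads in replicate 2 and 12978140 in replicate 1, of which 5162369 and 4226300 fell on miRNA genes in their own orientation. Levels below are CPM, counts scaled to a common total of these reads. Reads mapping to several places were 39.4% of all reads in replicate 2 and 40.4% in replicate 1. The label of the tissue was checked against markers. The neuronal Mir132 (21189 and 40577 CPM) and Mir137 (5769 and 6008 CPM), the oligodendrocyte Mir219a-2 (3098 and 3476 CPM) and the astrocyte-enriched Mir23b (18187 and 20609 CPM) were abundant in replicate 2 and replicate 1 in that order. The neuronal Mir124a-1, Mir124a-2 and Mir124a-3, which are near-identical loci, had at most 19 counts each.

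Of all 2202 miRNA genes, 775 had a count in at least 1 library, 1427 had none in either and 309 reached 10 CPM in both. Of the 9 muscle miRNA genes, 5 had a count, 4 had none in either library and only Mir206 reached 10 CPM in both. Together they had 313 counts in replicate 2 and 256 in replicate 1, which is 60.6 CPM in each library. The exact Poisson 95% interval was 54.1 to 67.7 CPM for replicate 2 and 53.4 to 68.5 CPM for replicate 1. Intervals cover counting error only. The summed level was thus 0.00606% of the counts on miRNA genes, both in reads placed at a single locus. In bulk tissue, fewer cells of a type and less RNA per cell cannot be told apart.

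**Figure D1:**
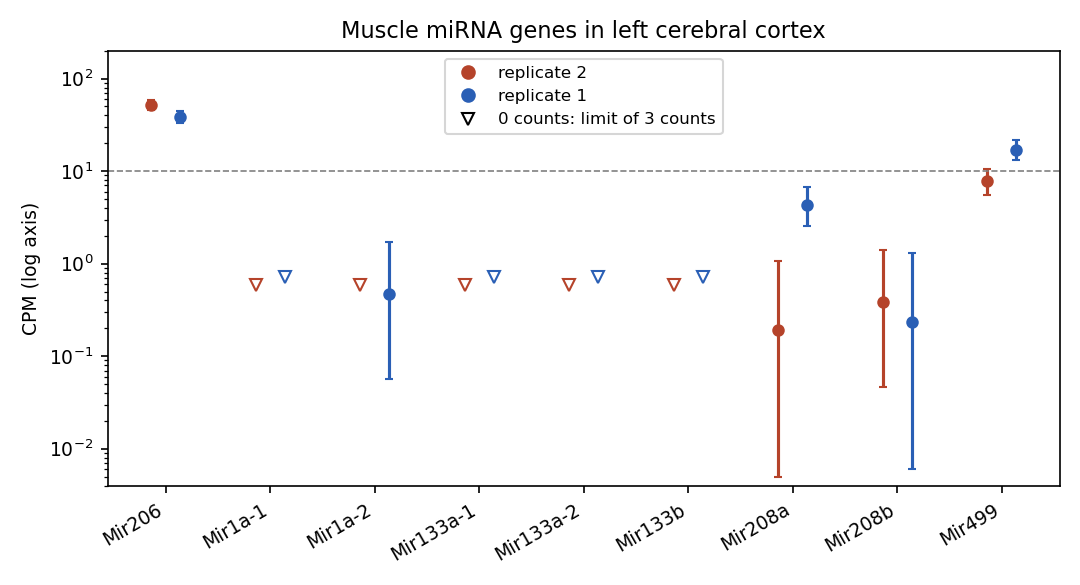
CPM of each muscle miRNA gene (log axis) in replicate 2 and replicate 1, with exact Poisson 95% intervals as bars. Open triangles mark 0 counts, drawn at the limit of 3 counts, and the dashed line marks 10 CPM. Mir206 lies above the line in both libraries at 52.3 and 38.6 CPM, and Mir499 only in replicate 1 at 17.04 CPM. The other genes lie below the line.

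Mir206 (ENSMUSG00000065559.1; mm10 chromosome 1, 20679010 to 20679082, plus strand, in an exon of the long non-coding RNA gene Gm28653) had 270 counts in replicate 2 and 163 in replicate 1. Its level was 52.3 CPM (interval 46.2 to 58.9) in replicate 2 and 38.6 CPM (32.9 to 45.0) in replicate 1, with a mean of 45.4 ± 9.71 CPM (SD, n = 2). It stood at rank 226 in replicate 2 and 250 in replicate 1, and at rank 245 by mean among 775 genes with a count. Mir206 therefore lay within the 309 genes detected at 10 CPM in both libraries, in their lower part.

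Each read was taken to stand for a whole mature-sized RNA, so levels of hairpin genes are compared without scaling to length. How evenly different miRNAs were captured in a library was not tested, and the intervals do not cover it. Mir137, linked to neuronal maturation, had 110 times the counts of Mir206 in replicate 2 (exact 95% interval 97.9 to 125) and 156 times in replicate 1 (134 to 183). Mir132, induced by neuronal activity, had 405 times the counts in replicate 2 (360 to 458) and 1052 times in replicate 1 (902 to 1234). Both neuronal genes thus exceeded Mir206 in each library by far more than counting error.

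The 5 genes nearest to Mir206 by Euclidean distance of log2(CPM + 1) over the 2 libraries were Mir539 (distance 0.10), Mir6236 (0.20), Mir25 (0.23), Mir449a (0.40) and Mir483 (0.41). Mir539, of the imprinted cluster on chromosome 12, had 50.0 CPM in replicate 2 and 36.4 CPM in replicate 1. With 2 libraries this measure mostly ranks genes by a like level.

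The other genes of the miR-1 and miR-206 group were nearly uncounted. Mir1a-1, whose products act in cardiac and skeletal muscle (chromosome 2, 180389048 to 180389124, plus strand, intergenic), had 0 counts in both libraries, which allows up to 0.581 CPM in replicate 2 and 0.710 CPM in replicate 1. Mir1a-2, in an intron of Mir133a-1hg on chromosome 18, had 0 counts in replicate 2 and 2 in replicate 1. With 3 counts as the floor of a library at 0, the counts of Mir206 were 90 times that floor in replicate 2 and 54.3 times in replicate 1. The exact interval for the ratio of Mir206 to Mir1a-1 began lower, at 72.7 in replicate 2 and 43.7 in replicate 1. These values hold for reads placed at a single locus and set no minimum for the difference in level, since reads mapping to several places were set aside. The 5p strand of Mir1a-1 shared at most 14 bases in a row with another miRNA hairpin, that of Mir1a-2. What this means for the placing of its reads was not tested.

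The miR-133 genes, known to regulate myoblast proliferation and cardiac growth, had no counts at all. Mir133b (ENSMUSG00000065480.1) lies 3686 bases downstream of Mir206 on chromosome 1, from 20682769 to 20682887, in an exon of the same gene Gm28653. Its 0 counts stood beside 270 and 163 for Mir206. Mir133a-2, 9254 bases downstream of Mir1a-1 on chromosome 2, and Mir133a-1, in an intron of Mir133a-1hg on chromosome 18, also had 0 counts in both libraries. For the 3 genes together a count of 0 allows up to 0.581 CPM in replicate 2 and 0.710 CPM in replicate 1, in reads placed at a single locus. What share of the reads mapping to several places came from the Mir1a and Mir133 genes was not tested.

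Mir499, in an intron of Myh7b, a myosin heavy chain gene (ENSMUSG00000076312.1; chromosome 2, 155622880 to 155622958, plus strand), was the second of the counted genes. Its 40 counts in replicate 2 stood at 7.75 CPM (interval 5.54 to 10.6) and its 72 in replicate 1 at 17.04 CPM (13.3 to 21.5), with a mean of 12.4 ± 6.57 CPM (SD, n = 2). The intervals of the libraries do not overlap, and only replicate 1 passed 10 CPM.

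Mir208a lies in an intron of Myh6, the adult cardiac myosin of the mouse (ENSMUSG00000065432.1; chromosome 14, 54949060 to 54949142, minus strand). Its single read in replicate 2 is 0.194 CPM (0.00490 to 1.08), and its 18 counts in replicate 1 are 4.26 CPM (2.52 to 6.73). Mir208b, in an intron of Myh7, the slow and fetal cardiac myosin (ENSMUSG00000077928.1; chromosome 14, 54975700 to 54975776, minus strand), had 2 counts in replicate 2 and 1 in replicate 1. Together Mir208a, Mir208b and Mir499 had 8.33 CPM in replicate 2 (6.03 to 11.2) and 21.5 CPM in replicate 1 (17.3 to 26.4). Mir499 held 40 of these 43 counts in replicate 2 and 72 of 91 in replicate 1, where Mir208a held 18.

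**Figure D2:**
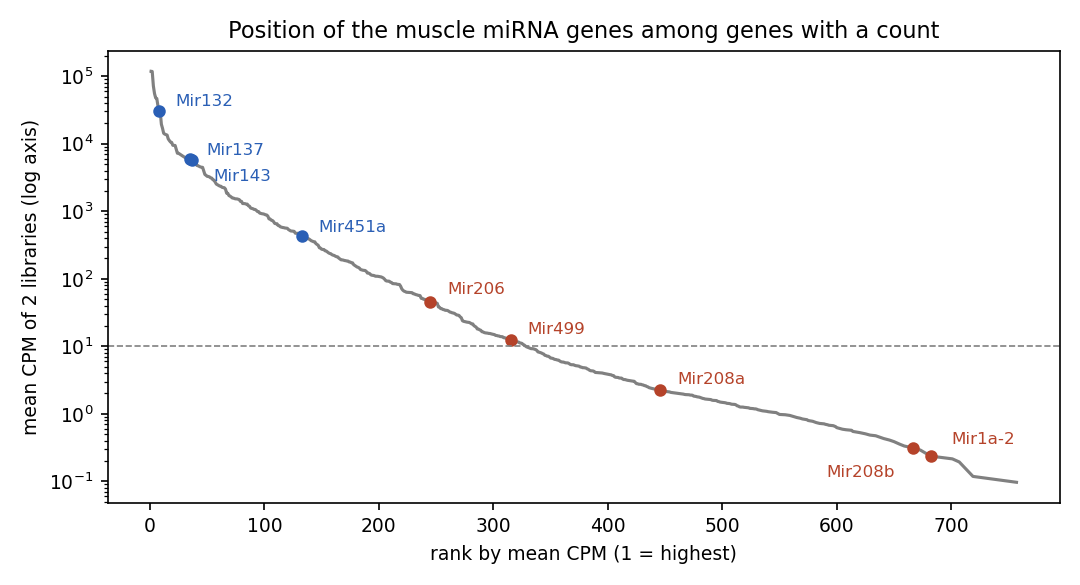
Mean CPM of the 2 libraries (log axis) against rank for the genes with a count, as a grey line. Muscle miRNA genes are red, other named genes blue, and the dashed line marks 10 CPM. Mir206 is at rank 245 and Mir499 at rank 315, while Mir208a, Mir208b and Mir1a-2 are at 446, 667 and 682.

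The order of the 9 genes was tested within each library by exact two-sided binomial comparison of the counts, with Benjamini-Hochberg adjustment over 72 pairs (36 in each library). Pairs with a Mir1a or Mir133 gene order only reads placed at a single locus, since reads mapping to several places were left out. In replicate 2, 15 pairs differed beyond counting error. Mir206 exceeded Mir499 by 6.75 times (exact 95% interval 4.83 to 9.66, adjusted p = 2.30e-42), Mir499 exceeded all genes below it, and Mir208b, Mir208a and the genes at 0 could not be ordered. In replicate 1, 21 pairs differed. Mir206 exceeded Mir499 by 2.26 times (1.71 to 3.03, adjusted p = 6.88e-09 by the exact test) and Mir499 exceeded Mir208a by 4.00 times (2.36 to 7.13, adjusted p = 1.94e-08 by the exact test). Mir208a in turn exceeded the 6 genes below it, which could not be ordered. The order Mir206 before Mir499 thus held in both libraries, and the place of Mir208a did not.

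While the summed level was alike, its make-up differed. The shares are of reads placed at a single locus, and the counts of the Mir1a and Mir133 genes can miss their main strands. Mir206 took 86.3% of the 9 genes' counts in replicate 2 (exact Clopper-Pearson 95% interval 81.9 to 89.9) and 63.7% in replicate 1 (57.5 to 69.6). Mir499 took 12.8% in replicate 2 (9.29 to 17.0) and 28.1% in replicate 1 (22.7 to 34.1). Mir208a took 0.319% in replicate 2 (0.00809 to 1.77) and 7.03% in replicate 1 (4.22 to 10.9).

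**Figure D3:**
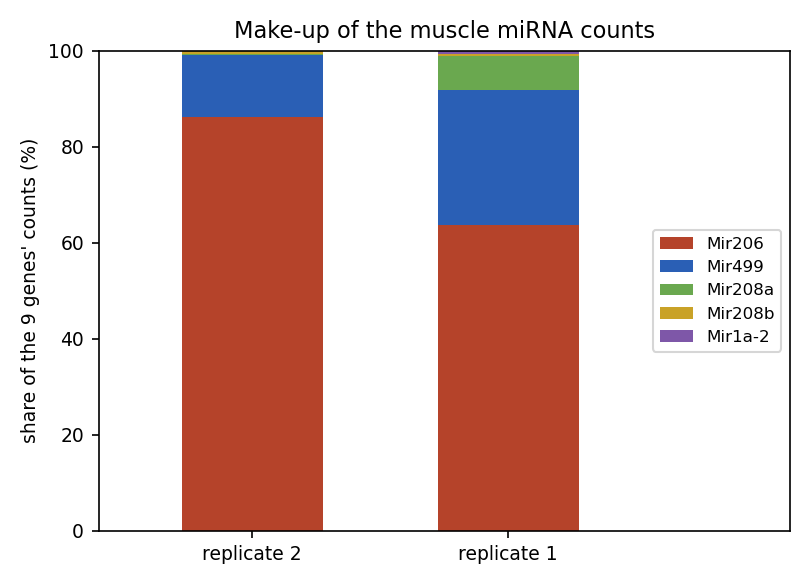
Share of the counts of the 9 muscle miRNA genes taken by each gene with a count, in replicate 2 (313 counts) and replicate 1 (256 counts). Counts are of reads placed at a single locus. Mir206 fills 86.3% of the bar of replicate 2 and 63.7% of that of replicate 1.

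Replicate 2 was set against replicate 1, the sole contrast in a series of 1 group. It concerns 2 libraries rather than conditions and has no replicate check. Genes whose summed counts reached 10 were put to an exact two-sided binomial test against TMM-scaled library sizes, and p-values were adjusted over all 546 such genes by the Benjamini-Hochberg method. Of the 9 muscle miRNA genes 3 were tested and all 3 were called at an adjusted p under 0.05, 1 higher and 2 lower in replicate 2. Among all genes tested 58.8% were called, of which those with replicate 2 on top were 24.5% of the genes tested and those with replicate 1 on top 34.2%, so being called does not set these genes apart. The median log2 ratio of the 3 genes was -1.16, against -0.07 over all genes tested.

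Mir206 was 1.33-fold higher in replicate 2 than in replicate 1 (log2 ratio 0.41, exact 95% interval of the ratio 1.09 to 1.62, adjusted p = 0.00859 by the exact binomial test). With a BCV (biological coefficient of variation) fixed at 0.1 in an edgeR exact test, the adjusted p of Mir206 was 0.224 and the call was lost. Over 7 alternatives the adjusted p was between 0.00192 and 0.224. The fold of Mir206 was smaller than the median fold of 1.42, in either direction, among the 127 genes with a sum of 100 to under 1000 counts.

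Mir499 was lower in replicate 2, with a log2 ratio of -1.16 (ratio 0.448, interval 0.295 to 0.664, adjusted p = 8.70e-05 by the exact binomial test). Mir208a was lower in replicate 2 too, at a log2 ratio of -3.94 with 0.5 counts added to each library (adjusted p = 1.33e-05 by the exact binomial test). Its counts of 1 and 18 gave a 95% interval of 0.00107 to 0.282 for the ratio of replicate 2 to replicate 1. Both were called with a ratio of 2-fold or more, as were 20% of all genes tested. The intervals of both ratios lay below 1 and that of Mir206 above 1, without overlap.

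Markers of other cell types moved between the same libraries, where 58.8% of all genes tested were called. Of the erythroid markers, Mir451a and Mir144 both passed the test in the direction of replicate 2, with a summed level of 861 CPM in replicate 2 and 36.2 CPM in replicate 1. All 3 choroid plexus markers, Mir204, Mir448 and Mir1298, were called higher in replicate 2, with a summed level of 957 CPM there and 575 CPM in replicate 1. The endothelial marker Mir126a was called higher there too (13122 CPM, against 7756 CPM in replicate 1). In the other direction, both oligodendrocyte markers, Mir219a-2 and Mir338, and both astrocyte markers, Mir23b and Mir29a, were called lower in replicate 2. So were 2 of 3 microglial markers, Mir146 and Mir223, while Mir155 did not pass (181 CPM in replicate 2 and 173 CPM in replicate 1). Of 6 neuronal markers tested, Mir138-1 was called higher in replicate 2, Mir132, Mir137, Mir383 and Mir124a-3 were called lower, and Mir124a-1 did not pass. The log2 ratios of the neuronal markers above 1000 CPM were between -0.97 for Mir132 and 0.15 for Mir138-1. The part of these cell types in the differences of Mir206, Mir499 and Mir208a was not tested.

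**Figure D4:**
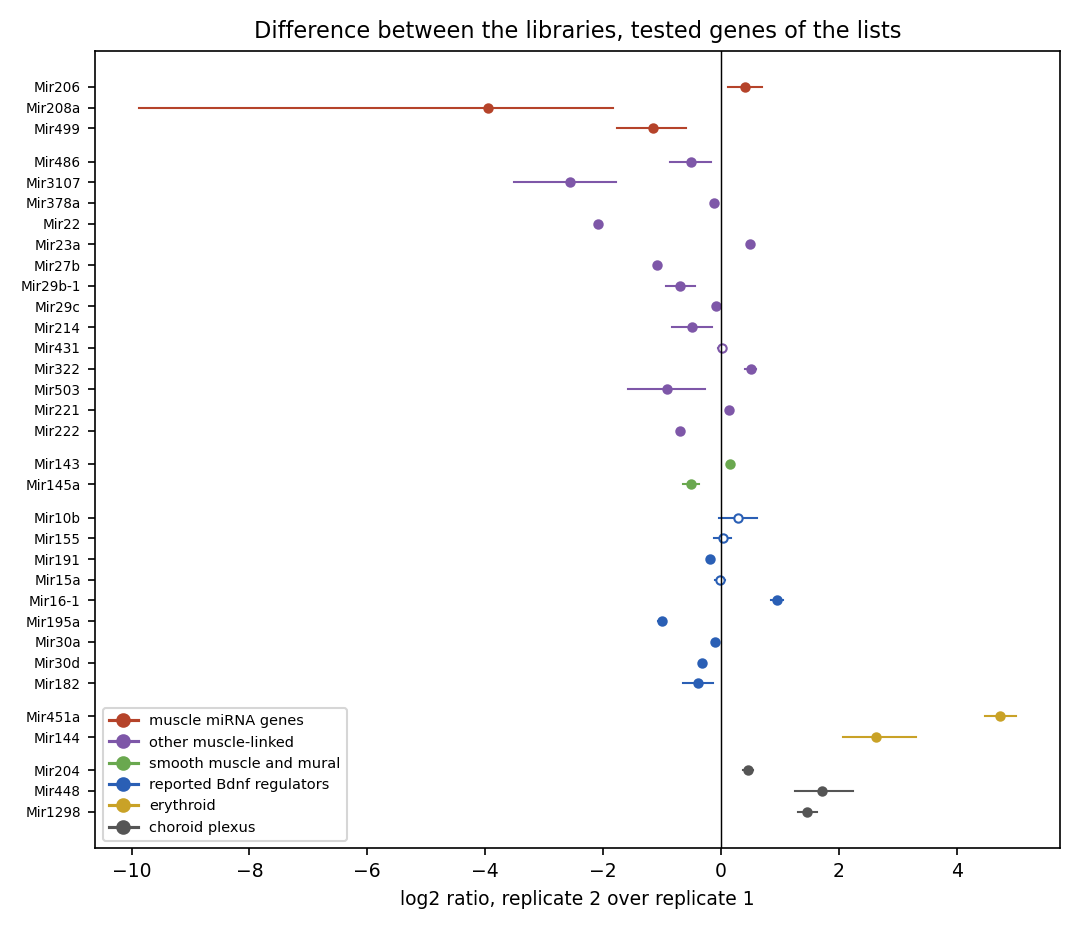
Log2 ratio of replicate 2 over replicate 1 for tested genes, with exact 95% intervals from counting error as lines. Drawn are the muscle miRNA, other muscle-linked, smooth muscle and mural, reported Bdnf regulator, erythroid and choroid plexus lists. Neuronal, oligodendrocyte, astrocyte, microglial and endothelial markers are not drawn. Filled points passed the exact binomial test, open points did not. Mir206 lies at 0.41, Mir499 at -1.16 and Mir208a at -3.94.

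Other miRNA genes linked to muscle spanned levels above and below that of Mir206. Their summed level, carried by a few abundant genes, was 28330 CPM in replicate 2 and 34396 CPM in replicate 1. Of 16 listed, 15 had a count (775 of all 2202 genes), 12 were detected in both libraries (309 of all 2202) and 14 were tested. Replicate 2 was higher in 3 of the called genes and lower in 10, and the 14 had a median log2 ratio of -0.50. Of all genes tested, 24.5% were called higher and 34.2% lower in replicate 2. Mir23a, of the miR-23/27/24 cluster, had 9784 CPM in replicate 2 and 6783 CPM in replicate 1. Mir22, enriched in heart and muscle, had 2525 CPM in replicate 2 and 10479 CPM in replicate 1, a log2 ratio of -2.08. In reads placed at a single locus, 6 of the list lay below the mean level of Mir206. These were Mir214, Mir486, Mir3107, Mir503, Mir199a-2 and Mir675, of which Mir675 had 0 counts. Whether reads of these genes were among those mapping to several places was not tested.

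The remaining genes of that list at 1000 CPM or more on average were Mir221, Mir378a, Mir29c and Mir27b. Mir221, which promotes smooth muscle proliferation, had 7208 CPM in replicate 2 and 6445 CPM in replicate 1. Mir378a, linked to mitochondrial metabolism, had 3812 CPM in replicate 2 and 4061 CPM in replicate 1. Mir29c, which represses collagen genes, had 1457 CPM in replicate 2 and 1518 CPM in replicate 1. Mir27b had 1208 CPM in replicate 2 and 2495 CPM in replicate 1, a log2 ratio of -1.08. Mir3107 had 2.91 CPM in replicate 2 and 17.3 CPM in replicate 1, but it overlaps Mir486 on the opposite strand, so its counts are uncertain.

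Of the smooth muscle and mural cell genes, Mir143 had 6036 CPM in replicate 2 and 5276 CPM in replicate 1, or 115 and 137 times the counts of Mir206. Its cluster partner Mir145a had 169 CPM in replicate 2 and 235 CPM in replicate 1. Both were called, as were 58.8% of all genes tested, Mir143 higher and Mir145a lower in replicate 2.

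The Bdnf transcript was examined for matches to the seed of miR-206-3p, whose pairing letters in the target are ACATTCC. Its longest annotated 3′ UTR, of 2855 bases, held 3 matches on the transcript strand, the strand searched. Of 21020 genes with a 3′ UTR, 10.1% held at least 1 match in their longest one. Of the 1172 genes whose 3′ UTR was within 10% of the length of that of Bdnf, 18.9% held at least 1 match and 3 held 3 or more, Bdnf included. The matches, with the 7 letters in capitals, lie on the plus strand of mm10 at chr2:109724354-109724382, chr2:109724548-109724576 and chr2:109725447-109725475, and none overlaps another.
Bdnf match 1: aagtctgcattACATTCCtcgataatgtt
Bdnf match 2: ttggaaccaaaACATTCCgtttacatttt
Bdnf match 3: tggtacttgagACATTCCtaaaggaaggc
A match describes the sequence only, and no mRNA was measured here.

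Of all 2202 genes 309 were detected in both libraries, and of 9 other miRNA genes reported to act on Bdnf all 9 were. In replicate 2, 1 was called higher and 5 lower, and the median log2 ratio was -0.09. Of all genes tested, 24.5% were called higher and 34.2% lower there. Mir191 had 8969 CPM in replicate 2 and 9941 CPM in replicate 1, or 171 and 258 times the counts of Mir206. Mir30d had 6318 CPM in replicate 2 and 7732 CPM in replicate 1, and Mir30a had 4372 and 4561 CPM. Mir195a, a member of the miR-15/16 family, had 619 CPM in replicate 2 and 1216 CPM in replicate 1, a log2 ratio of -1.01. Mir16-1 of the same family had 523 CPM in replicate 2 and 264 CPM in replicate 1, a log2 ratio of 0.96. These levels are of reads placed at a single locus. How many reads of Mir16-1 mapped to several places was not tested. Mir10b was the least abundant of them at 40.1 CPM in replicate 2 and 31.9 CPM in replicate 1, and Mir206 had 1.30 and 1.21 times its counts. Mir10b and Mir16-1 were singled out after their values were seen.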

How the data were processed

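The authors deposited a table of unnormalized counts of reads on each hairpin gene for each library, made on mm10 with GENCODE M21 per the records accompanying the files. Which aligner, counter and trimming were used is not given in the sources used here. Of the 3 columns, the one with reads in the orientation of the gene was used, and the unstranded one as an alternative. The 4 leading rows (unmapped, mapping to several places, outside genes, ambiguous) held 67.6% of reads for replicate 2 and 67.4% for replicate 1 and entered neither library sizes nor tests. The 5p and 3p strands are summed, and reads from a strain unlike the reference may map less well.

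CPM, exact intervals and binomial tests were computed with Python 3.11.15 and SciPy 1.17.1. TMM factors over genes with at least 10 counts came from edgeR 4.0.16 and size factors from DESeq2 1.42.0. Ratios have 0.5 counts added to each library. The genes, lists and tests were chosen with earlier results of these data known. Named were the 9 genes, listed genes at 1000 CPM or more or called at 2-fold or more, the markers and the 5 genes nearest to Mir206. Mir145a, Mir10b, Mir16-1 and the less abundant muscle-linked genes were named after their values were seen. In the lists Mir133c was set beside Mir1b as an antisense partner, but it lies apart from the Mir133 genes on chromosome 2 and had 0 counts. Shared runs were searched in M21 miRNA hairpins alone, and 3′ UTRs came from M21 transcripts.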

Additional observations from a re-analysis of the deposited data

Results flagged for a closer look

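Signals outside the main measure exceeded the limit of 3 counts set for a count of 0. On the strand opposite to Mir1a-2 there were 9 counts in replicate 2 and 9 in replicate 1, beside 0 and 2 on its own strand. These are the counts of Mir1b, which overlaps the whole Mir1a-2 hairpin on the other strand (1.74 and 2.13 CPM). Replicate 2 had 6290303 reads mapping to several places and replicate 1 had 5244644, and the Mir1a and Mir133a genes share runs of 28 and 31 bases between loci. What these reads hold was not tested.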

How the results depend on the processing

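With all reads of the table as denominator, the mean level of Mir206 was 14.7 CPM in place of 45.4 CPM and the summed share of the 9 genes 0.00197% in place of 0.00606%, by construction. That share was 0.00648% with the unstranded column and 0.00607% with TMM-scaled denominators, each beyond an SD that is very small here. Leaving out each library gave 38.6 to 52.3 CPM for Mir206 and 0.00606% for the summed share. By edgeR's exact test with the BCV set to 0.1, calls numbered 157 rather than 321, and 2 rather than 3 among the 9 genes, Mir206 being lost. Mir208a was not tested at 100 counts or more, which left 2. All 7 alternatives kept the direction of Mir206 and Mir499, and all 6 that of Mir208a. The order of the genes gave 36 called pairs with the unstranded column too, an alternative chosen after seeing the data. Both columns hold the same counts of the 9 genes, except for Mir1a-2 in replicate 1 (0 unstranded, 2 on its own strand). This alternative could therefore hardly change the order. No paired analysis was possible because the 2 libraries form 1 group. Genes at 0 to 3 counts are limited by depth.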
